A study of Mus musculus with 48 samples.

Results

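Tterm cells carrying a guide against Zfp219 were compared with Tterm cells carrying the OTC control in aged hosts; the labels give the gene as knocked out. Libraries were chosen by guide, state and host age in their titles, which gave 2 Zfp219 and 2 OTC libraries of the 48 in the series, and all 53868 peaks of the deposited table were tested. The assay was ATAC-seq, in which a transposase cuts open chromatin, so that the reads of a peak measure its accessibility. All libraries, controls included, came from OT-1 CD8 T cells, whose receptor recognises an ovalbumin peptide. These donor cells expressed Cas9, received a guide from a lentiviral vector with an ametrine reporter, and were moved into young or aged mice 1 day before B16-OVA melanoma cells, a tumour line that makes ovalbumin, were inoculated. Tumours were taken on day 15, and Tterm cells were sorted as Slamf6-negative and Tim-3-positive. Other aged states were sorted on the same markers: Tprog (Slamf6 alone), Ttran (both) and Ttad (neither). Cells of independent mice were pooled into 2 or 3 replicates per group, and the ages of the mice, the number in each pool and the share of edited cells are not given in the sources used here. The name OTC is used as the labels give it, and the letters A and Y in the titles were read as aged and young. P-values measure the spread between pools.

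Terminally exhausted CD8 T cells arise under lasting antigen in tumours. They keep inhibitory receptors such as PD-1 and Tim-3, lose the capacity for renewal held by Slamf6-positive precursors, and have a chromatin landscape in which sites bound by AP-1, NR4A and RUNX factors are prominent. Zfp219 encodes a zinc-finger protein of the nucleus that binds DNA. Peaks mark regulatory sites and not transcript levels, and a peak outside a gene is given here with its nearest protein-coding gene, which it need not regulate.

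With the Zfp219 guide more peaks fell than rose, and the peaks that fell were strong. Their median signal was 488 normalised reads, beside 185 for those that rose and 93.9 for all peaks. Signal here is the mean of a peak over all 48 libraries. Of all peaks, 1922 (3.57%) differed between Zfp219 and OTC at an adjusted p under 0.05 in limma with Benjamini-Hochberg adjustment. Of these, 1353 (2.51%) were lower with the Zfp219 guide and 569 (1.06%) were higher. Of the 1922 called peaks 1921 had no overlap between the libraries of the 2 groups, beside 49.1% of all peaks. Call and overlap rest on the same values, so the lack of overlap adds no support to the calls. Most steps were modest, with a median log2 fold change of −0.55 among lower peaks and 0.77 among higher peaks, and 408 peaks moved by a log2 step of at least 1. The lower peaks were spread over many genes, 928 of which had only lower calls, and included sites at AP-1 genes, Runx3, Runx2, Stat3, Ccr7 and Tnfsf11. The higher peaks included sites at interferon-inducible genes of the PYHIN and IFIT families. Without OTC replicate 1 the count fell to 718, without OTC replicate 2 to 859, without Zfp219 replicate 1 to 601 and without Zfp219 replicate 2 to 712. Quantile normalisation left 1202 calls, 449 higher and 753 lower.

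**Figure D1:**
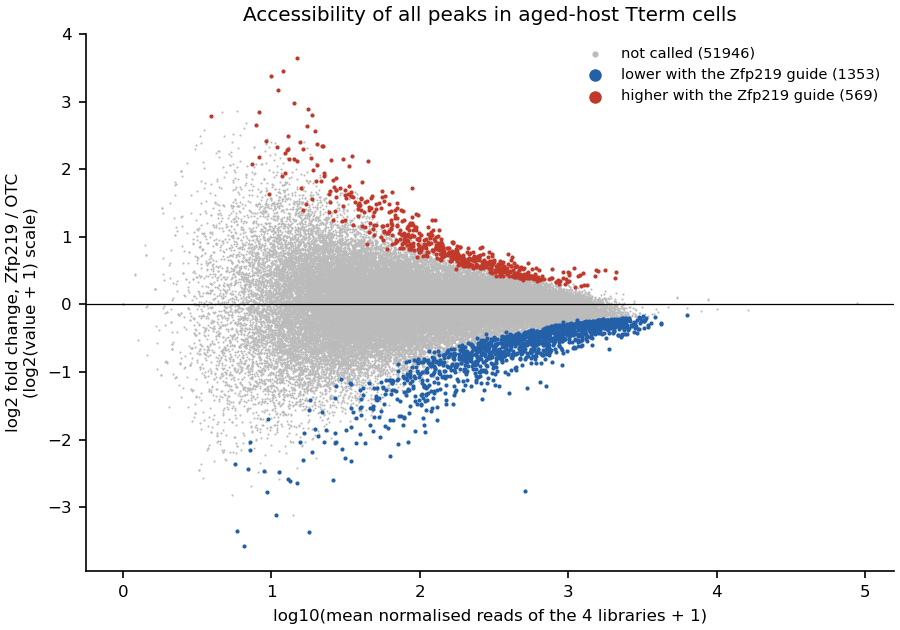
Log2 fold change (Zfp219 over OTC, log2(value + 1) scale) of each of 53868 peaks in aged-host Tterm cells against the log10 of its mean normalised reads in the 4 libraries plus 1. The 1353 lower peaks (blue) reach to the strongest peaks on the right with small changes, while the 569 higher peaks (red) sit further left; grey points were not called.

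Accessible promoters give examples of peaks whose signal rose or fell. RefSeq sequence of the 250 bases before the start site (GRCm38.p6) is shown for Ifi208, Ifi213, Ifi206 and Ifit1bl1, whose promoter peaks rose, and for Hspa1a, whose promoter peak fell. The first 4 genes are named for induction by interferon, and capitals mark a match to the interferon-stimulated response element, searched as GAAA, any 2 bases and GAAA on both strands. In Hspa1a, an inducible heat shock chaperone, capitals mark a match to the heat shock element, searched as GAANNTTC on both strands. Ifi208 lies at chr1:173673415-173673664 on the plus strand, Ifi213 at chr1:173599273-173599522 on the minus strand, Ifi206 at chr1:173491319-173491568 on the minus strand, Ifit1bl1 at chr19:34601969-34602218 on the minus strand and Hspa1a at chr17:34972157-34972406 on the minus strand.
Ifi208: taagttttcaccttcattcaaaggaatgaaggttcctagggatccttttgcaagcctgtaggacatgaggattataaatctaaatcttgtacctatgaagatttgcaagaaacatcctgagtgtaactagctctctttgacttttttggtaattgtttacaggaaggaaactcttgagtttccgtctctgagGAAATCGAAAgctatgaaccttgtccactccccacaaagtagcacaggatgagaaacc
Ifi213: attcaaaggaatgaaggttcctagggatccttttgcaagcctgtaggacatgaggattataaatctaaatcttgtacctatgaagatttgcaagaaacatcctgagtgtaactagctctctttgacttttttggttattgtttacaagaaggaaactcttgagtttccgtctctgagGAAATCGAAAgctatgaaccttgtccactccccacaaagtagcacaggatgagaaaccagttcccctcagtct
Ifi206: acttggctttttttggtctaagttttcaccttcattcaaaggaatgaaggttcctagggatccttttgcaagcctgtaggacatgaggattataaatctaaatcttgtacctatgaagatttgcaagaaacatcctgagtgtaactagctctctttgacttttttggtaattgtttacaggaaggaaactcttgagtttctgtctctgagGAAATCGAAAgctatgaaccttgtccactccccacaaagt
Ifit1bl1: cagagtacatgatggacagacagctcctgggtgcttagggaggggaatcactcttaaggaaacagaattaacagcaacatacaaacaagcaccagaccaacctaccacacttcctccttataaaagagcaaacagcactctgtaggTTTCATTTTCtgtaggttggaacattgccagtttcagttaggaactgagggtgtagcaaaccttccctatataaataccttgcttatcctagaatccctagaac
Hspa1a: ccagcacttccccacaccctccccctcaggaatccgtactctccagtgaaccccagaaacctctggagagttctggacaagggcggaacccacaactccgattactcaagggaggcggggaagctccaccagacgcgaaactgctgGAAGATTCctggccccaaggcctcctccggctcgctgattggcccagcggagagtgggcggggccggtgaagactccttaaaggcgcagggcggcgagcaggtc
Over their aligned parts the Ifi208 and Ifi213 sequences were 99.1% identical, Ifi208 and Ifi206 99.6%, and Ifi213 and Ifi206 98.6%, so the 3 promoters are copies that share the element, and reads of 50 bases from them can be hard to place. In the 300-base promoter windows (250 before and 50 after the start), the interferon element was present in 15 of 90 windows in higher peaks (16.7%) and in 4 of 231 in lower peaks (1.73%). The 3 near copies each count among the 15, so these are not all separate hits. All 11550 windows that lay in a peak held it in 3.05% of cases, and all 21263 windows in the table in 3.35%. The heat shock letters GAANNTTC were present in 6.06% of the windows in lower peaks, in 9 of 90 in higher peaks and in 5.22% of all those in a peak. The AP-1 letters TGANTCA were in 3 of 231 windows in lower peaks and in 7 of 90 in higher peaks (7.78%), against 4.54% of those in a peak. The ETS letters CCGGAAG were in 29 of 90 windows in higher peaks (32.2%) and 19 of 231 in lower peaks (8.23%), against 19.3%. CRE (TGACGTCA), RUNX (TGTGGTT) and GC box (GGGCGG) letters were in 4.44%, 3.33% and 61.1% of windows in higher peaks. In lower peaks they were in 3.90%, 5.63% and 70.6%, and in all those in a peak 3.44%, 3.61% and 67.7%. The median share of G and C bases was 56.8% in windows of higher peaks, 61.7% in lower and 62.0% in those not called. Motif shares were not matched for it. A match is a description of letters, not a bound site or a cause. These windows cover few of the changed sites, since 176 of 1353 lower and 79 of 569 higher peaks (13.9%) overlapped a promoter window, against 17.2% of all peaks.

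The PYHIN and IFIT families encode sensors of foreign nucleic acid and interferon-induced RNA-binding proteins; both lists were added after the values were seen, so their counts carry no independent weight. At the Ifi208 promoter the Zfp219 libraries held 134.4 and 134.3 normalised reads and the OTC libraries 43.6 and 36.7. Both Zfp219 libraries were above both OTC libraries, with a change of 1.72 on the log2 scale (standard error 0.25, adjusted p by limma 1.21e-06). At Ifi213 the Zfp219 libraries held 71.5 and 96.9 and the OTC libraries 28.3 and 22.9, again without overlap (log2 fold change 1.67). Ifi206 followed with 181 and 156 against 55.6 and 88.9 (1.24), and 2 Ifi214 peaks rose by 1.07 and 1.57. In all, 5 of 32 PYHIN peaks rose (15.6%, beside 1.06% of all peaks) and 0 fell (beside 2.51%). The smallest adjusted p at an IFIT gene was at the Ifit1bl1 promoter, with 78.4 and 64.3 reads in the Zfp219 libraries and 10.9 and 22 in the OTC libraries (log2 fold change 2.12, standard error 0.34, adjusted p by limma 1.02e-05). In all 3 of 11 IFIT peaks rose (27.3%) and 0 fell, all rises in the Ifit1bl1 body, where 1 also covers the start of Ifit3b (706.6 and 660.3 against 517.5 and 553.5, log2 fold change 0.35). Without OTC replicate 1, OTC replicate 2, Zfp219 replicate 1 and Zfp219 replicate 2 the calls numbered 3, 4, 5 and 3 for PYHIN and 1, 2, 2 and 1 for IFIT. In a list of 20 interferon-stimulated genes, 17 with a peak, 3 of 76 peaks rose (3.95%, beside 1.06% of all peaks). The rises were 1 each at Irf2, Usp18 and Trim30a. Near Irf8 2 peaks fell (2.63%, beside 2.51% of all peaks), and the median of the list was 0.07 beside −0.0043 for all peaks. Without the same libraries in that order 1, 0, 1 and 1 of the 76 rose and 1, 0, 0 and 2 fell.

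Among other rises, the largest among peaks with at least 50 normalised reads in the higher group lay 16129 bp from Ikzf2, which encodes the Ikaros-family factor Helios. Its Zfp219 libraries held 51.7 and 61.1 reads and its OTC libraries 13.1 and 10.1, a change of 2.2 on the log2 scale (standard error 0.46, adjusted p by limma 0.00091). The other 14 Ikzf2 peaks were not called. Peaks near Asxl2 (1.80), a Polycomb-linked factor, and Nabp1 (1.61), a single-strand DNA-binding protein, rose with no overlap of libraries, as did peaks in Smg9 (2.05), Alg10b (1.66) and Glcci1 (1.61) and one near Prep (1.61). No overlap was a condition in choosing the largest rises. At Pag1 2 of 13 peaks also rose. Pag1 encodes a membrane adaptor that binds the kinase Csk. Its leading peak held 233 and 194 reads with the guide and 101 and 122 with OTC (log2 fold change 0.93).

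**Figure D2:**
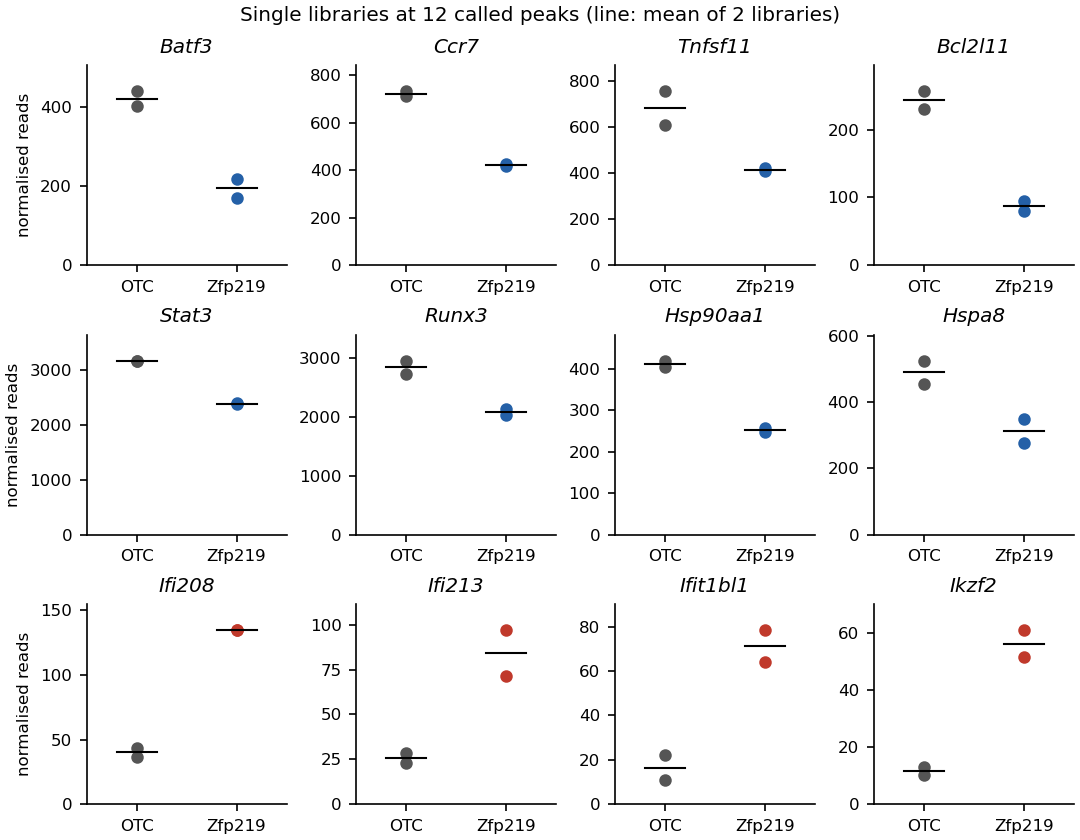
Normalised reads of single libraries (points) and means of 2 libraries (lines) at the called peak with the smallest adjusted p at each of 12 genes, for the OTC control and the Zfp219 guide in aged-host Tterm cells. Axes start at 0, and in each panel the libraries of one group lie apart from those of the other: the guide is lower in the 8 panels from Batf3 to Hspa8 and higher in the 4 from Ifi208 to Ikzf2.

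AP-1 genes encode the basic leucine zipper factors of the Fos, Jun, Batf, Maf and Atf families, which pair up downstream of T cell receptor signalling. Of 67 peaks at 13 of 14 listed genes, 21 fell and 0 rose, with a median log2 fold change of −0.23. That is 31.3% of the list called lower, beside 2.51% of all peaks. In aged Ttran 24 of the 67 peaks were lower and 1 higher, in aged Ttad 9 and 0, and in aged Tprog 2 and 0. Of all peaks 8.29%, 4.56% and 1.45% were lower in these states. Batf3 gave 7 of the 21 calls, from 9 peaks, and Jun gave 4 from 8. In the Batf3 body (chr1:191099893-191100864) the Zfp219 libraries held 171 and 217 reads and the OTC libraries 403 and 441, a change of −1.12 on the log2 scale (standard error 0.16, adjusted p by limma 5.15e-07). Both Zfp219 libraries were below both OTC libraries there, and also at a second Batf3 peak 9649 bp outside the gene, with 47.4 and 51.3 against 144 and 135 (−1.48). Falls at the promoter peaks of Jun (−0.28), Junb (−0.22), Jund (−0.23) and Fosb (−0.20) were small changes in strong sites: Jun held 2157 and 2102 reads with the guide and 2572 and 2584 with OTC. Batf, Atf3, Mafg and Fosl1 had no called peak. After quantile normalisation 12 of the 67 AP-1 peaks were called lower and 0 higher, and 7, 6, 4 and 8 were lower without OTC replicate 1, OTC replicate 2, Zfp219 replicate 1 and Zfp219 replicate 2.

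**Figure D3:**
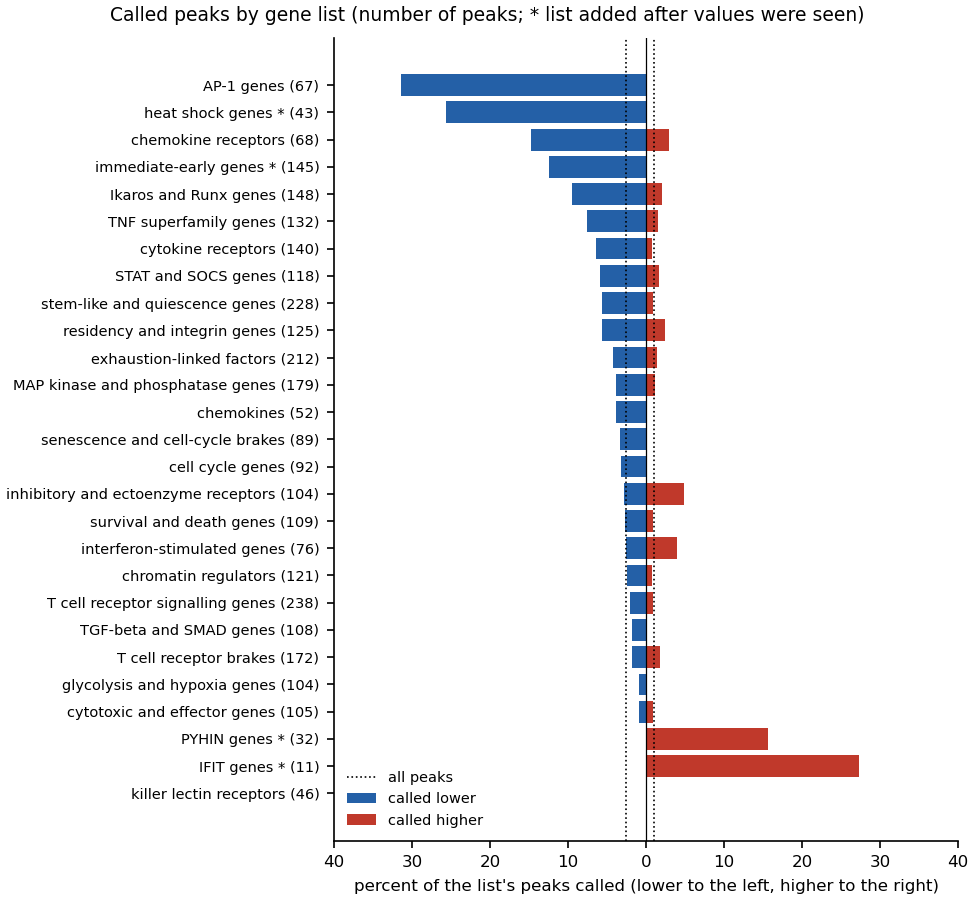
Percent of each gene list's peaks called lower (blue, to the left) or higher (red, to the right) with the Zfp219 guide in aged-host Tterm cells, with the number of peaks in brackets; dotted lines mark the shares of all peaks, 2.51% lower and 1.06% higher. AP-1 genes have the largest share lower of the lists drawn (31.3%) and IFIT genes the largest share higher, and lists with an asterisk were added after the values were seen.

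Runx factors direct CD8 lineage choice and effector genes, and Ikaros factors are zinc-finger regulators of lymphocytes. Of 148 peaks at 9 Ikaros and Runx genes, 14 fell (9.46%) and 3 rose (2.03%), beside 2.51% and 1.06% of all peaks; 9 of the falls were at Runx3 and 5 at Runx2, and 2 of the rises at Runx1. The Runx3 peak over a start site (chr4:135118721-135121521) held 2147 and 2045 reads with the guide and 2739 and 2959 with OTC, a change of −0.44 on the log2 scale (standard error 0.06, adjusted p by limma 2.84e-07), with no overlap. Runx3 and Cmip, which encodes an adaptor of receptor signalling, had 9 lower peaks each, of 23 and 24, the most of any gene. Rora, Ece1 and Itpr1 followed with 8 each, of 30, 18 and 44 peaks, and no peak at these 5 genes rose. The order is by count and not by share of peaks. Without the same 4 libraries in turn (OTC replicates 1 and 2, Zfp219 replicates 1 and 2) the Ikaros and Runx list had 5, 7, 8 and 5 lower peaks.

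Cytokine signalling genes had more lower than higher peaks, as did all called peaks together. STAT factors carry signals from cytokine receptors to the nucleus and SOCS proteins shut them down. On that list 7 of 118 peaks fell (5.93%) and 2 rose (1.69%), beside 2.51% and 1.06% of all peaks. In the fifth of all peaks with the most signal, 749 of 10774 were lower and 124 higher, and list shares were not matched for signal. At the Stat3 promoter the Zfp219 libraries held 2393 and 2382 reads and the OTC libraries 3159.6 and 3167, a change of −0.41 on the log2 scale (standard error 0.06, adjusted p by limma 1.37e-06). The libraries within each group were close together and the groups far apart. Stat5a (−0.40) and Stat4 (−0.38) each had 2 lower peaks, and the rises were at Jak1 and Jak2, the kinases that sit on the receptors. Among cytokine receptors 9 of 140 peaks fell (6.43%) and 1 rose (0.714%), with falls at Il4ra (1038 and 1030.0 against 1444 and 1448), Il2rb (2666 and 2441 against 3327 and 3063) and Il21r (891 and 866 against 1176 and 1167). After quantile normalisation 4 receptor peaks and 5 STAT list peaks were lower. Without OTC replicate 1, OTC replicate 2, Zfp219 replicate 1 and Zfp219 replicate 2 the lower peaks numbered 3, 4, 4 and 3 for the receptors and 4 each time for the STAT list.

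Peaks at genes of lymphoid homing and costimulation fell as well. Ccr7, the receptor that guides T cells to lymph nodes, had 6 of 11 peaks lower. At its leading peak, 11291 bp from the gene, the Zfp219 libraries held 427 and 419 reads and the OTC libraries 713 and 732 (log2 fold change −0.77, standard error 0.12, adjusted p by limma 1.08e-05). Ccr6, a receptor for the chemokine Ccl20, had 52.6 and 63.5 against 146 and 147 at a peak 961 bp away (−1.33). Together 10 of 68 chemokine receptor peaks fell (14.7%, beside 2.51% of all peaks) and 2 rose (2.94%, beside 1.06%), at Ccr2 and Cxcr3. Of 132 TNF superfamily peaks 10 fell (7.58%) and 2 rose (1.52%); Tnfsf11, which encodes RANKL, held 408 and 424 against 609 and 756 (−0.71), and Tnfsf4, which encodes OX40 ligand, 1151 and 1207 against 1663 and 1627 (−0.48). Both rises were at Tnfrsf26. Among survival and death genes, the distal peak 63974 bp from Bcl2l11, which encodes the death inducer Bim, held 80.1 and 94.5 reads against 231 and 257 (−1.47), and single peaks of the survival genes Bcl2 (−0.63) and Mcl1 (−0.46) fell; 3 of 109 peaks fell in that list, or 2.75%, close to the 2.51% of all peaks. Without OTC replicate 1, OTC replicate 2, Zfp219 replicate 1 and Zfp219 replicate 2, 5, 8, 5 and 6 chemokine receptor peaks and 4, 5, 6 and 4 TNF superfamily peaks were lower.

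Of the loci that define the state, most strongest peaks were not called, while weaker peaks at some of them were. The strongest peaks of Havcr2, which encodes Tim-3 (1228 and 1275 against 1351 and 1212), Tox, Entpd1, Gzmb, Ifng and Tcf7 were not called, with log2 fold changes between −0.07 and 0.11. Pdcd1, which encodes PD-1, held 2725 and 2578 against 2929 and 3063 and missed the threshold (−0.18, limma adjusted p = 0.051). A weaker peak outside Pdcd1 rose, with 74.1 and 80.6 normalised reads against 34.9 and 33.0 (log2 fold change 1.16, limma adjusted p = 0.0212). An Entpd1 body peak, in the gene of the ectoenzyme CD39, also rose, with 155 and 194 against 55.6 and 95.3 (1.24). At Tox 2 body peaks fell (−0.63 and −0.85); these peaks were chosen after their values were seen. Among inhibitory and ectoenzyme receptors 5 of 104 peaks rose (4.81%, beside 1.06% of all peaks) and 3 fell (2.88%, beside 2.51%); the rises were at Pdcd1, Entpd1, Cd101, Lair1 and Btla, and the falls at Lag3, Tigit and Cd5. After quantile normalisation 6 rose and 0 fell. Lair1, a collagen receptor, rose from 53.4 and 43.1 to 96.5 and 103 (1.04), Btla, an inhibitory receptor for HVEM, from 33.8 and 56.8 to 93.1 and 72.5 (0.89), and a Cd5 peak fell (−0.35). Without the same libraries in that order 0, 3, 0 and 1 of the 104 rose, and 1, 1, 2 and 1 fell. Exhaustion-linked factors had 9 of 212 peaks lower (4.25%, beside 2.51% of all peaks) and 3 higher (1.42%, beside 1.06%), among them Nr4a2 (−0.24) and Bhlhe40 (−0.29) in the lower group, but quantile normalisation left 1 lower and moved this Nr4a2 body peak, 1 of 2 Nr4a2 peaks called lower, to 0.0094. Without OTC replicate 1, OTC replicate 2, Zfp219 replicate 1 and Zfp219 replicate 2, 1, 4, 2 and 4 of them were lower. Cytotoxic and effector genes had 1 of 105 peaks higher (0.952%, beside 1.06% of all peaks), near Gzmk (315 and 385 against 218 and 245, log2 fold change 0.59). They had 1 lower (0.952%, beside 2.51% of all peaks), near Fasl. Limma called 0 of 46 killer lectin receptor peaks (beside 3.57% of all peaks), as did edgeR and DESeq2, and 2 had an unadjusted p under 0.05.

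The labels were checked against loci. In OTC cells of aged hosts the Havcr2 promoter peak was higher in Tterm (1351 and 1212) than in Tprog (585 and 523), and a Slamf6 peak 1031 bp from the gene was lower (318 and 367 against 527 and 562), the directions in which the sort separates these markers. Cd38, Cd101 and Il7r did not follow the state in this way. Within the Tterm gate this Slamf6 peak was lower still with the guide, at 203 and 248 (log2 fold change −0.60, limma adjusted p = 0.0087). A smaller share of cells with an open site and less opening in each cell cannot be told apart in pooled cells. The 4 Zfp219 peaks were not called: its promoter peak held 1250.3 and 1121 against 999 and 1058 (0.20, limma adjusted p = 0.202), and the other 3 ran from −0.09 to 0.37; accessibility does not test whether the gene was cut. Over 21 myeloid peaks the sums were 5042 and 5303 with the guide and 4998 and 4892 with OTC, with 1 peak called higher, at Itgam. Limma and edgeR called 0 peaks in the NK cell (13 peaks), B cell (10), stroma and endothelium (18) and melanoma (9) lists, where 1, 1, 0 and 4 had an unadjusted p under 0.05. Of all peaks limma called 3.57%. In the melanoma list 1 peak was called lower with DESeq2, 1 after quantile normalisation, 1 without Zfp219 replicate 2, 2 with the compared groups alone and 3 with library weights. The sums were 3114 and 2984 against 3089 and 2910 for NK cells, 888 and 861 against 994 and 886 for B cells, 4012 and 3601 against 4098 and 4169 for stroma, and 2696 and 2821 against 3129 and 3162 for melanoma. CD4 and regulatory T cell peaks summed to 4959 and 4887 against 5089 and 4738, with 1 of 29 called, the Ikzf2 peak. Cd79a, Cd79b, Ms4a1, Adgre1, Csf1r, Lyz2, Foxp3, Col1a2, Tyr, Tyrp1 and Dct had no peak. The part of other cells in the results was not tested. Reads in peaks were 15249285 and 16159054 in the Zfp219 libraries and 12447296 and 14780826 in the OTC libraries, and the share of reads in promoter peaks was 39.4% and 39.5% against 38.8% and 38.4%.

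The most significant change lay in the body of Thy1, a surface glycoprotein of T cells. The peak (chr9:44046603-44047436) held 135 and 125 reads with the guide and 959 and 829 with OTC, 6.86 times as many, a change of −2.77 on the log2 scale (standard error 0.14, adjusted p by limma 1.15e-29). The other 13 Thy1 peaks were not called, with log2 fold changes from −0.52 to 0.60. Over the 21 groups of the series this peak ranged from a group median of 123 to one of 4748. The aged OTC libraries held 4611 and 4884 in Ttad and 2944 and 3051 in Ttran but 122 and 135 in Tprog. The aged Zfp219 libraries held 567 and 668 in Ttad, 3153 and 3158 in Ttran, and 191 and 219 in Tprog. The aged Dusp5 libraries held between 117 and 266 in all 4 states. A peak on chromosome 6 (chr6:15568020-15569564), more than 100000 bp from any listed gene, came next with 429 and 428 against 969 and 1015 (−1.21). A Cd82 body peak, in the gene of a tetraspanin, held 1475 and 1434 against 2349 and 2254 (−0.66, limma adjusted p = 7.42e-11), and a distal peak 45643 bp from Rbpj, the DNA-binding partner of Notch, held 252 and 204 against 563 and 565 (−1.31). Peaks in Adamts14 (−1.14), Myo3b (−0.86) and Hacd3 (−0.86), near Gm30733 (−1.39) and Tmem150c (−1.23), and at the Slc25a42 promoter (−0.48) completed the 10 with the smallest adjusted p. The 10 largest falls among peaks with at least 50 reads in the OTC group were otherwise in weaker sites, such as Slco2a1 (17.2 and 25.2 against 92.6 and 115, log2 fold change −2.25) and Kcnip3 (13.8 and 6.51 against 43.6 and 56.8, −2.27), or near members of gene families with many copies (Tdpoz2, Vmn2r85 and Xlr3b), where read placement is uncertain.

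The same libraries did not enter the comparisons of the other aged states, so the called peaks could be followed there. Of the 1353 lower peaks, 1081 (79.9%) were also lower in Ttran, where 8.29% of all peaks were (14.2% in either direction), 760 (56.2%) in Ttad, where 4.56% were (8.23% in either direction), and 250 (18.5%) in Tprog, where 1.45% were (2.56% in either direction). Of the 569 higher peaks, 199 (35.0%) were also higher in Ttran (5.92% of all peaks), 180 (31.6%) in Ttad (3.66%) and 63 (11.1%) in Tprog (1.11%). These shares are 24.2%, 30.9% and 32.1% of the lower calls of Ttran, Ttad and Tprog, and 6.24%, 9.12% and 10.5% of their higher calls. The Batf3 body peak had log2 fold changes of −1.11 in Ttran and −0.99 in Ttad, and the Cd82 peak −0.90 and −0.43. Only 18 peaks (0.0334%) passed the limma test of the difference between the change in Tterm and the mean change in the other aged states, 14 of them positive (0.026%) and 4 negative (0.00743%), and 3638 passed at an unadjusted p under 0.05. They were led by peaks on an unplaced scaffold (JH584304) and on chromosome 17 that were not called in Tterm (0.02 and −0.04) and were more negative in Ttran (the first at −0.78), and by the Thy1 peak (−2.03). The Thy1 peak also fell in Ttad (−2.95), while its change was 0.67 in Tprog and 0.07 in Ttran. Without OTC replicate 1, OTC replicate 2, Zfp219 replicate 1 and Zfp219 replicate 2 of Tterm the 18 became 11, 32, 5 and 8. Whether mice were shared between the states of a guide is not given in the sources used here.

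**Figure D4:**
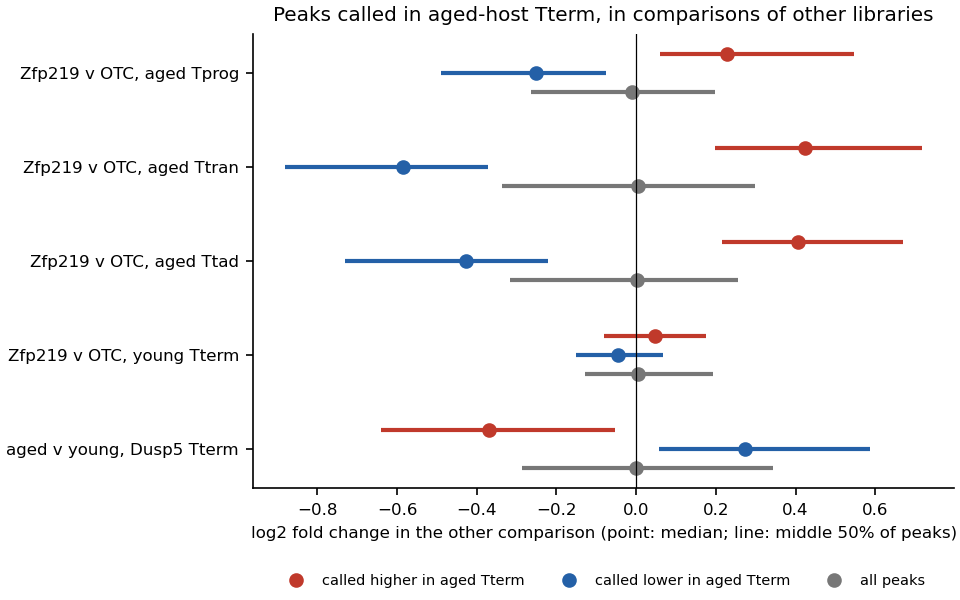
Median (point) and middle 50% (line) of the log2 fold changes, in 5 comparisons of other libraries, of the 569 peaks called higher and 1353 called lower in aged-host Tterm cells, beside all 53868 peaks. Both sets keep their side of 0 in the other aged states, lie near all peaks in young Tterm (medians 0.05 and −0.05), and sit on the opposite sides when aged and young Dusp5 Tterm cells are compared.

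In young hosts the same guide gave few changes. Tterm cells of young hosts, with 3 libraries a group, had 148 called peaks (0.275%), 43 higher (0.0798%) and 105 lower (0.195%). Of the 1353 peaks lower in aged hosts, 32 were lower (2.37%) and 11 higher (0.813%) in young hosts, with a median of −0.05. Those are 30.5% of the 105 lower and 25.6% of the 43 higher calls of young hosts. Of the 569 higher peaks 2 were higher (4.65% of the 43) and 1 lower (0.952% of the 105). The limma test of the difference between the aged and the young change called 503 peaks (0.934%), 396 more negative (0.735%) and 107 more positive (0.199%) in aged hosts. Without aged OTC replicate 1, OTC replicate 2, Zfp219 replicate 1 and Zfp219 replicate 2 this count was 252, 264, 196 and 231, and without young OTC replicate 2, young Zfp219 replicate 1 and young Zfp219 replicate 2 it was 315, 331 and 332. At the Ifi208 promoter the young libraries averaged 148 with the guide and 155 with OTC, and the difference was 1.77 (SE 0.32, limma adjusted p = 0.00039). At the Batf3 body peak they averaged 152 and 191, with a difference of −0.79 (SE 0.20, limma adjusted p = 0.029). Host age and sample sheet cannot be told apart, since both ages carry sheet numbers of their own. Tterm cells of aged and young hosts carrying the Dusp5 guide shared no library with these comparisons. There, 632 of the 1353 peaks lower with the Zfp219 guide were higher in aged than in young hosts (46.7%, beside 8.96% of all peaks) and 56 were lower, and of the 569 higher peaks 211 were lower in aged hosts (37.1%, beside 9.23%) and 16 higher; 18.2% of all peaks differed there. In young OTC cells 26.5% of all peaks differed between Tprog and Tterm. Of the 1353 lower peaks, 525 (38.8%) were more open in Tprog than in Tterm there, beside 13.9% of all peaks, and 224 were less open (16.6%, beside 12.6%). Of the 569 higher peaks, 111 (19.5%) were more open and 89 (15.6%) less open in Tprog.

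Peaks of several heat shock genes moved in opposite directions at the 2 ages. These chaperones are induced by stress through HSF1, and their list was added after the values were seen. In aged Tterm cells 11 of 43 peaks fell (25.6%, beside 2.51% of all peaks) and 0 rose (beside 1.06%). The falls were not particular to Tterm. In aged Ttran 15 of the 43 were lower and 2 higher (beside 8.29% and 5.92% of all peaks). In aged Ttad 4 were lower and 0 higher (beside 4.56% and 3.66%), and in aged Tprog 0 were called. In young Tterm cells 5 rose (beside 0.0798% of all peaks) and 0 fell (beside 0.195%). The Hsp90aa1 body peak held 258 and 248 reads with the guide and 419 and 405 with OTC in aged hosts (log2 fold change −0.70), and averaged 1493 with the guide and 1006 with OTC in young hosts (0.57). The guide was below the control in aged hosts and above it in young hosts, and the difference of the log2 fold changes was −1.27 (SE 0.12, limma adjusted p = 2.8e-13). The Hspa1a peak held 970.3 and 920.1 against 1297 and 1223 in aged hosts and averaged 3833 against 3039 in young hosts (−0.41 and 0.33, difference −0.75). Hspa1a and its neighbour Hspa1b (−0.26 and 0.40) are near copies, so reads between them can be misplaced. Hspa8 (−0.65 and 0.39), Dnajb1 (−0.70 and 0.57), Hsph1 (−0.58 and 0.24) and Dnaja1 (−0.82 and 0.24) had the same pair of signs, though in young hosts the last 2 were not called. Hspb1 had no called peak in aged Tterm cells, with a median of 0.74 over 3 peaks. Lower calls came from 9 genes. Hspd1 and Bag3, with 1 lower peak each, are left out of the 7 genes given here. The pairs of signs above therefore do not cover them. In all 10 of the 43 peaks passed the test of the age difference, all more negative in aged hosts, beside 0.735% of all peaks. At these 7 genes the young means were above the aged means for both guides. Without aged OTC replicate 1, OTC replicate 2, Zfp219 replicate 1 and Zfp219 replicate 2, 4, 8, 8 and 6 of the 43 peaks were lower.

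**Figure D5:**
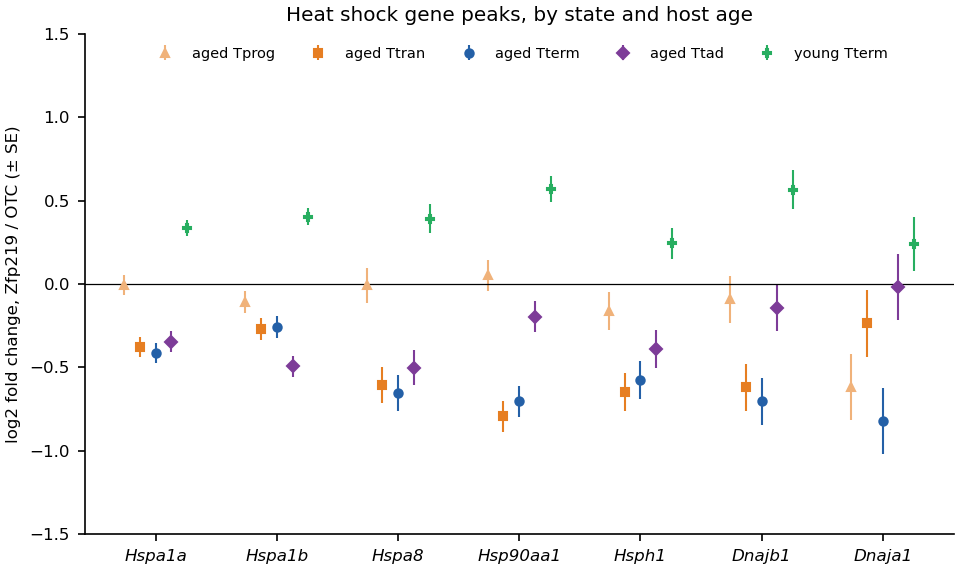
Log2 fold change (Zfp219 over OTC, with limma standard errors) at the called peak with the smallest adjusted p of 7 of the 9 heat shock genes with a lower call, in 4 aged states and in young Tterm cells. Aged Tterm values (circles) run from −0.82 to −0.26 and young Tterm values (plus signs) from 0.24 to 0.57.

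The Dusp5 guide in aged Tterm cells was compared with the same 2 OTC libraries, so its changes against OTC are not independent of those of Zfp219. Against OTC, 2215 peaks (4.11%) were called with Dusp5, 836 higher (1.55%) and 1379 lower (2.56%). Side by side, the Zfp219 and Dusp5 log2 fold changes were −2.77 and −2.85 at the Thy1 peak, −1.12 and −0.01 at the Batf3 body peak, −0.77 and −0.50 at the leading Ccr7 peak, 1.72 and 1.05 at Ifi208, and −0.70 and 0.40 at Hsp90aa1. The 2 guides were compared with each other directly, and limma called 2724 peaks (5.06%), 1452 higher (2.7%) and 1272 lower (2.36%) with Zfp219. Which direction had more calls depended on the setting: there were 1188 higher and 1365 lower with edgeR, 1420 and 1706 with DESeq2, 1508 and 1608 with a pseudocount of 8, and 584 and 855 with the compared groups alone. The Zfp219 libraries are the same as in the contrast with OTC. Beside the 2.36% of all peaks, in the AP-1 list 9 of 67 peaks were lower with Zfp219 than with Dusp5. In the heat shock list 12 of 43 were, and none was higher in either. Other lists fell with both guides. Against OTC, Dusp5 was lower at 19 of 148 Ikaros and Runx, 10 of 68 chemokine receptor and 10 of 140 cytokine receptor peaks. It was higher at 1, 1 and 0, and 2.56% of all peaks were lower. In the direct contrast 7, 1 and 3 peaks of these lists were higher with Zfp219 and 0, 1 and 2 lower. The 3 smallest adjusted p in this contrast were at 2 peaks on unplaced scaffolds and 1 on chromosome 17, with 2.23% and 2.22% of reads on such scaffolds in the Dusp5 libraries and 0.918% and 0.903% in the Zfp219 libraries; Dusp5 replicate 2 had 5638413 reads in peaks, the fewest of the series, and without it 700 peaks were called, 332 higher and 368 lower. Without Zfp219 replicate 1 the count was 790 (321 higher, 469 lower), and without replicate 2 it was 967 (396 higher, 571 lower).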

How the data were processed

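Peak signals of 48 ATAC-seq libraries in 21 groups were read from the deposited table. Bowtie2 2.2.9, Picard 2.8.0, MACS2 2.1.1, SAMtools 1.3.1, DESeq2 1.28.1 and the build mm10 are named, without roles, in the submitters' processing notes; a shift of insertion sites is not given in the sources used here. The deposited signal is a read count divided by a size factor of the library: 100% of values were whole multiples of 1 step per library (tolerance 0.01), and the step matched a median of ratios. Reads in peaks ran from 5638413 to 29942755 per library. No per-sample column was left unused.

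The main test was limma 3.58.1 (R 4.3.3; lmFit and eBayes with trend) on log2(value + 1) over all 48 libraries with 1 mean per group, Benjamini-Hochberg adjustment over 53868 peaks and a threshold of 0.05. Fold changes on this scale are understated at weak peaks. Alternatives included edgeR 4.0.16 and DESeq2 1.42.0 on the whole reads; edgeR called 2435 peaks. Tests were tried on simulated data. Peaks took the RefSeq protein-coding gene (GRCm38.p6, the same build as mm10) they overlapped, or the nearest within 100000 bp; 53.4% of start sites lay in a peak, against 2.94% to 4.15% after shifts. Replicates of Zfp219 and of OTC differed beyond counting noise (chi-square per degree of freedom 2.81 and 3.07). Promoters were matched by symbol for 5 of 5 genes printed.

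Named peaks were those of Zfp219, the strongest peak of 8 state genes, the 10 largest rises and falls with at least 50 reads and no overlap, the 10 smallest adjusted p, the 5 genes with most calls, up to 3 called peaks per gene list, and 3 per difference. Members, lists and rules were chosen with earlier results of these data known, and the heat shock, immediate-early, PYHIN and IFIT lists after the values were seen. A marker gene of the lists is not reported here.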

Additional observations from a re-analysis of the deposited data

Results flagged for a closer look

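The limma test of a difference between changes drew attention to several results. Between aged Tterm and the mean of the other aged states, 18 peaks differed, with the smallest adjusted p at a wide peak on the unplaced scaffold JH584304 (difference of log2 fold changes 0.40), at the Thy1 peak (−2.03) and at a chromosome 17 peak outside genes (0.70). The fall at the Thy1 peak was not particular to Tterm, since its log2 fold change in Ttad was −2.95. Read placement on scaffolds and repeated sequence is uncertain. Between aged and young Tterm, 503 peaks differed, led by Thy1 (−3.51), Hsp90aa1 (−1.27) and Hspa1a (−0.75). Host age and sample sheet cannot be told apart in the second comparison.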

How the results depend on the processing

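Replicate numbers did not pair the Zfp219 and OTC libraries of aged Tterm (correlation of same-numbered deviations −0.0004), and with a replicate block 1915 peaks were called. Of the 133 named peaks, the only called one to turn its fitted sign in these alternatives was the Nr4a2 peak, at 0.0094 after quantile normalisation, where 29 others lost their call; leaving out a library cost 42 to 59 calls. The count of Zfp219 against OTC in aged Tterm was 1202 after quantile normalisation, 3913 with library weights, 3680 with the compared groups alone, 3169 with DESeq2 and 601 to 859 with 1 library left out. Of the 1922 calls, 1147 were also made after quantile normalisation, 1868 with edgeR and 572 to 744 with 1 library left out, and 0 were called in the opposite direction. Peaks that differed between Tterm and the other aged states numbered 36 with library weights, 64 with DESeq2 and 5 to 32 with 1 library left out. Of these, leaving out Zfp219 replicate 1 gave 5, Zfp219 replicate 2 gave 8, OTC replicate 1 gave 11 and OTC replicate 2 gave 32. The aged and young difference numbered 2104 with library weights, 2523 with the compared groups alone, 914 with edgeR, 1434 with DESeq2 and 196 to 374 with 1 library left out. Zfp219 against Dusp5 gave 1439 with these groups alone and 700 to 3008 with 1 library left out. The causes were not tested. Groups of 2 libraries limit every count, and the lone library in a fit without its partner is assumed to vary like the other groups.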

Other observations

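Immediate-early genes, which respond within minutes to receptor signals, formed a further list added after the values were seen. Of 145 peaks at 20 genes, 18 (12.4%) fell with the Zfp219 guide in aged Tterm cells and 0 rose, beside 2.51% and 1.06% of all peaks; 10 of the 18 are also in the AP-1 list, at Fos, Fosb, Jun, Junb and Jund. The rest included 3 peaks of Nfkbia, which encodes the inhibitor of NF-kappaB, the leading one with 1005 and 963 reads against 1275 and 1393 with OTC (log2 fold change −0.44), and 1 each of Nr4a1 (1031 and 1031 against 1323 and 1191), Dusp1 (184 and 188 against 289 and 369) and Cd69 (134 and 149.8 against 273 and 233). After quantile normalisation 7 of the 145 were called lower, and without OTC replicate 1, OTC replicate 2, Zfp219 replicate 1 and Zfp219 replicate 2 the counts were 5, 6, 4 and 7.

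Integrin genes had peaks in both directions: Itgav (1777 and 1873 against 2441 and 2569, log2 fold change −0.46) and the Itga4 promoter (463 and 450.3 against 648 and 656, −0.51) fell, and single peaks of Itgae, Itga1 and Itga2 rose; in all 7 of 125 peaks of the residency and integrin list fell (5.6%, beside 2.51% of all peaks) and 3 rose (2.4%, beside 1.06%). Without the same libraries in that order 2, 6, 2 and 4 fell and 0 rose, and after quantile normalisation 4 fell and 2 rose. Both Xcl1 peaks called were lower (−0.51 and −0.33), the only calls by limma among 52 chemokine peaks (3.85%, beside 2.51% of all peaks called lower). Without the same libraries in that order 0, 1, 1 and 1 were called, and 5 with edgeR, 7 with DESeq2 and, with the compared groups alone, 10 lower and 1 higher. Glycolysis and hypoxia genes gave 1 call in 104 peaks, lower (0.962%, beside 2.51% of all peaks), near Pdk1 (−0.49).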
